A study of Mus musculus with 8 samples.

Results

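The 36 genes described here mark the vessel wall of the retina: 26 are endothelial and barrier genes and 10 are mural genes, of which 6 are known from pericytes and 4 encode contractile or filament proteins. They were picked by name, each as the feature whose symbol is that of the gene, and all 36 were found, each as a single feature among the 56465 features of the table. All 36 passed the filter of a mean of at least 10 normalized reads, which left 19798 features for testing. Messenger RNA was sequenced in 8 mouse retinas, each taken 4 days after the retina had been detached with 10 µl of sodium hyaluronate injected beneath it. Of these, 4 came from mice expressing human transferrin (TG, replicates 2, 5, 6 and 8) and 4 from wild-type mice (WT, replicates 3, 4, 5 and 7). Transferrin is the iron carrier of the blood. All mice were labelled C57Bl/6J, and every retina of both groups was detached, so no undetached retina enters the comparison. Neither the promoter behind the transgene nor the age of the mice is given in the sources used here. TG 2 (left eye) and TG 5 (right eye) came from males, TG 6 (left) and TG 8 (right) from females. WT 3, WT 4 and WT 5 were right eyes of males, and WT 7 was the left eye of a female. By eye and sex, the 4 WT retinas are from 4 mice. Whether TG 2 and TG 5, or TG 6 and TG 8, are the left and right eyes of the same mouse is not stated. The p-values therefore speak for the spread among these libraries alone.

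Retinal capillaries are tubes of endothelial cells wrapped by pericytes, and arterioles are wrapped by smooth muscle. Both kinds of wrapping cell are called mural cells. The endothelial cells form the inner blood-retinal barrier: tight junctions seal the gaps between them, transporters carry chosen molecules across, and vesicle traffic is held low. Vascular endothelial growth factor (VEGF) acts on endothelial cells through the receptors Kdr and Flt1, angiopoietins act through Tek, and endothelial Pdgfb recruits pericytes through the receptor Pdgfrb.

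Library totals were 61535690 to 70540242 reads in TG and 68433927 to 75866423 in WT, and mitochondrial genes took 20.4 to 22.3% of reads in TG and 21.9 to 27.5% in WT. The defining endothelial markers were present in every library: 12 of them summed to 4074 to 7355 normalized reads in TG and 4981 to 11185 in WT. Of the 36 genes, Abcc9 was the one with a library at 0 (TG 6) and with a mean under 50. The libraries also held RNA of other cells. Summed over 6 of 6 red cell markers, normalized reads were 14470 to 27131 in TG and 2635 to 39044 in WT, with WT 4 lowest. Over 12 of 12 pigment epithelium markers they were 25189 to 59457 in TG and 21169 to 122842 in WT, with WT 3 highest. Of that sum, Otx2 made up 16419 in WT 4 and 20658 in WT 3. Single markers differed: Rpe65 ran from 184 in TG 8 to 7153 in WT 3, and Best1 from 13.2 in TG 5 to 82.9 in WT 4. Leukocyte markers, 8 of 8, summed to 2933 to 13013 in TG and 3383 to 6923 in WT, and 8 of 8 fibroblast markers to 392 to 4232 in TG and 441 to 2111 in WT. Lens markers, 6 of 6, varied most: they summed to 115, 4916, 19194 and 460.4 in TG 2, 5, 6 and 8, against 23227, 748, 35.9 and 73.1 in WT 3, 4, 5 and 7. TG 6 and WT 3 thus stood apart by lens markers, with Crygs, Mip and Lim2 at 0 in some other libraries. TG 6, the library with the lowest vessel levels, also had the highest fibroblast sum, of which Fbln1 made up 3322, and the highest rod sum, 2.49e+06 against 1.56e+06 to 2.14e+06 in the other libraries. The part of these in the results was not tested. Values without TG 6, and without WT 3 and TG 6 together, are given for the counts and medians and for the barrier carriers. The closing section gives the genes whose sign turned.

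No gene of the 36 passed the test of TG against WT (limma, adjusted p under 0.05), and the lowest adjusted p among them was 0.918. Over all features the same test called 2 of 19798, or 0.0101%, with 1 higher and 1 lower in TG (0.00505% each). At an unadjusted p under 0.05, limma gave 2 of the 36 (Slco1c1 and Slco1a4, both lower in TG), where 2.62% of all features met that mark on the lower side, 2.02% on the higher side and 4.64% in either direction. On recovered reads, edgeR gave 1 of the 36 and DESeq2 gave 3 at an unadjusted p under 0.05, and each gave 0 at an adjusted p under 0.05. Over all 19798 features, edgeR gave 816 and DESeq2 gave 1057 at the same unadjusted mark. The fitted log2 fold change, TG over WT, was below 0 for 30 of the 36, made up of 21 of 26 endothelial and 9 of 10 mural genes, where 52.2% of all features lay below 0. Its median was -0.26 over the endothelial genes and -0.20 over the mural genes, against -0.017 over all features. These directions leaned on single libraries. Without TG 6 the counts below 0 were 14 of 26 and 5 of 10, and without WT 7 they were 13 of 26 and 7 of 10. Without WT 3 they were 23 of 26 and 6 of 10. The endothelial median was -0.019 without TG 6 and 0.0040 without WT 7, and the mural median -0.014 without TG 6, -0.079 without WT 7 and -0.043 without WT 3. Without both WT 3 and TG 6, 17 of 26 endothelial and 2 of 10 mural genes lay below 0, with medians of -0.10 and 0.14. In bulk tissue, fewer cells of a type and less RNA per cell cannot be told apart.

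**Figure D1:**
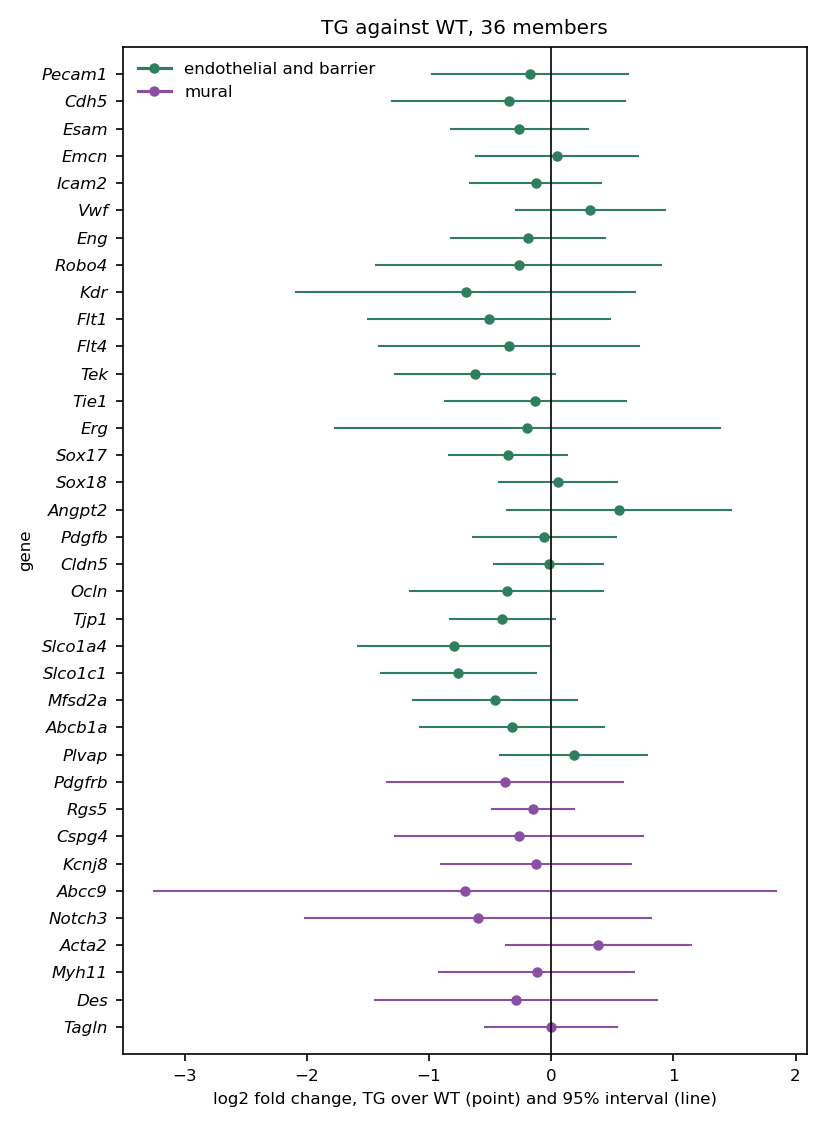
Fitted log2 fold changes of the 36 genes, TG over WT (x axis, log2 scale; points), with 95% intervals (lines), endothelial and barrier genes in green and mural genes in purple. Of the 36 points, 30 lie left of 0, and the intervals of Slco1a4 and Slco1c1 are the ones that do not reach 0.

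The carriers of the barrier had the lowest median of the groups of genes, with 4 of 4 below 0 and a median log2 fold change of -0.61. Slco1c1, an organic anion transporter that takes thyroid hormone across the blood-brain barrier, had 847, 476, 459 and 758 normalized reads in TG 2, 5, 6 and 8, against 1719, 661, 845 and 1201 in WT 3, 4, 5 and 7. TG 5 and TG 6 were the lowest, and the groups overlapped because TG 2 and TG 8 lay above WT 4. Its log2 fold change was -0.76 ± 0.29 (SE; 95% interval -1.39 to -0.13; limma adjusted p = 0.918). The change was -0.62 without TG 6, -0.52 without WT 3 and -0.38 without both. Slco1a4, a related carrier of bile acids and other organic anions, had 567, 366, 174 and 244 normalized reads in TG, against 413, 487, 417 and 966 in WT. Its groups overlapped through TG 2, and WT 7 stood well above the other WT libraries. The log2 fold change was -0.80 ± 0.36 (SE; limma adjusted p = 0.918), and was -0.53 without TG 6 and -0.65 without both WT 3 and TG 6. For Slco1a4 it was -0.51 without WT 7 and 0.057 with males only. Slco1a4 belongs to a cluster of similar genes, so reads of close copies may have been shared between them. The 2 genes lie 235 kb apart on chromosome 6 (GRCm38), Slco1c1 at chr6:141524384-141570177 and Slco1a4 at chr6:141805440-141856171. Mfsd2a, the lipid carrier that keeps vesicle traffic low in barrier endothelium, averaged 174 ± 47.7 normalized reads in TG and 242 ± 77.2 in WT (SD, n = 4 each), with a log2 fold change of -0.46 ± 0.31. Its highest library was WT 3, at 343, which also had the highest sum of pigment epithelium markers, 122842. In WT 3 the mean log2 level of the 4 carriers, each relative to its mean over the 8 libraries, was 0.55. Over all 26 endothelial and barrier genes it was -0.15 in WT 3. The part of other cells in the reads of the carriers was not tested. The change of Mfsd2a was -0.49 without TG 6 and -0.30 without both WT 3 and TG 6. Abcb1a, a drug efflux pump whose close copy Abcb1b may share its reads, averaged 345 ± 141 in TG and 427 ± 185 in WT. Its log2 fold change of -0.32 was -0.025 without TG 6 and 0.014 without both WT 3 and TG 6.

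**Figure D2:**
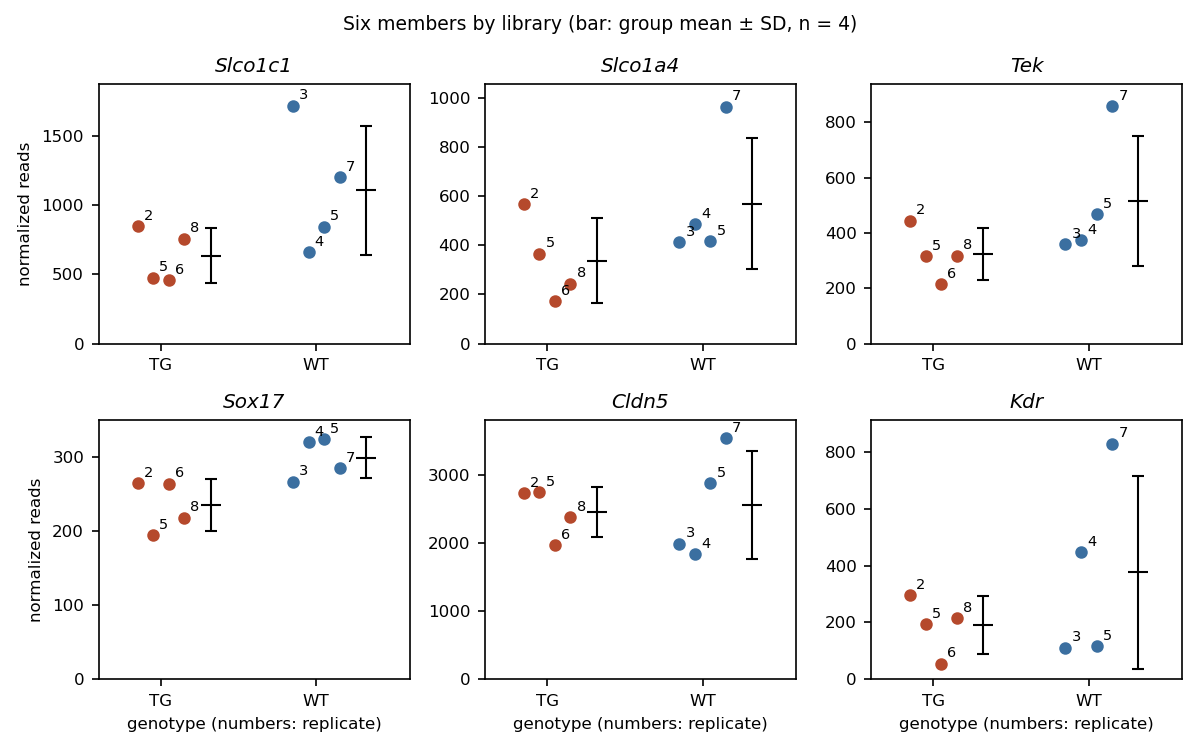
Normalized reads of Slco1c1, Slco1a4, Tek, Sox17, Cldn5 and Kdr in each of the 4 TG and 4 WT libraries (points, TG on the left), with group means and SDs. Of these genes, Sox17 has groups that do not overlap, and WT 7 is the highest library for Slco1a4, Tek, Cldn5 and Kdr.

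The tight junction genes had 3 of 3 log2 fold changes below 0. Tjp1, the scaffold that ties the junction to actin, had 1834, 1752, 988 and 1159 normalized reads in TG 2, 5, 6 and 8, against 1746, 2026, 1695 and 1868 in WT 3, 4, 5 and 7. The WT libraries lay close together, and TG 6 and TG 8 lay below all of them. The log2 fold change was -0.40 ± 0.20 (SE; limma adjusted p = 0.918). A second feature overlaps the Tjp1 locus, and other retinal cells also express Tjp1. Ocln, the transmembrane protein occludin, had 186, 114, 103 and 118 normalized reads in TG, against 120, 123, 149 and 323 in WT, where WT 7 stood apart. Cldn5, the main claudin of central nervous system endothelium, had 2730, 2739, 1961 and 2378 normalized reads in TG, against 1986, 1836, 2877 and 3529 in WT. The Cldn5 groups overlapped widely, with a log2 fold change of -0.02 ± 0.21 and a 95% interval of -0.47 to 0.42. Plvap, a protein of fenestrated endothelium that is low where the barrier is closed, averaged 192 ± 43.4 normalized reads in TG and 168 ± 29.2 in WT (SD, n = 4 each; log2 fold change 0.18 ± 0.28, SE), and overlaps Gtpbp3.

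Log2 fold changes of the 5 endothelial growth factor receptors were all below 0, with a median of -0.51, and WT 7 was the highest of the 8 libraries for each of them. Kdr, the main signalling receptor for VEGF, had 297, 195, 54.3 and 216 normalized reads in TG 2, 5, 6 and 8, against 111, 447, 116 and 830 in WT 3, 4, 5 and 7. WT 3 and WT 5 lay within the TG range of Kdr and WT 4 and WT 7 above it, and the highest library held 15.3 times the lowest. Flt1, which binds VEGF and limits its supply to Kdr, had 955, 472, 268 and 511 normalized reads in TG, against 396, 689, 472 and 1980 in WT. The gap between WT 7 and the other WT libraries was wider than the whole TG range. The log2 fold changes were -0.70 ± 0.64 for Kdr and -0.51 ± 0.46 for Flt1 (SE). Tek, the angiopoietin receptor, had 444, 317, 214 and 318 normalized reads in TG, against 358, 374, 467 and 860 in WT. TG 2 was the TG library above the lowest WT libraries, and the log2 fold change was -0.62 ± 0.30 (SE; limma adjusted p = 0.918). Tie1, the partner of Tek, averaged 285 ± 102 in TG and 319 ± 159 in WT, and Flt4, the receptor for VEGF-C, 138 ± 81.5 in TG and 173 ± 104 in WT (SD, n = 4 each).

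The starts of Kdr, Flt1, Robo4 and Slco1c1 are shown as examples, the first 3 as endothelial surface receptors that varied 7.39-fold or more between libraries and Slco1c1 for its smallest p. Erg (11.4-fold) and Notch3 (9.99-fold) varied as widely and are not printed. Each is the RefSeq promoter of GRCm38.p6, 5′ to 3′ on the gene's strand, from 250 bases before to 50 bases after the start. Kdr is chr5:75978406-75978705 (minus strand), Flt1 chr5:147725962-147726261 (minus), Slco1c1 chr6:141524104-141524403 (plus) and Robo4 chr9:37401722-37402021 (plus). Capitals mark AGGAAG, or CTTCCT where it lies on the other strand, letters that hold the GGAA core bound by ETS factors such as Erg.
Kdr: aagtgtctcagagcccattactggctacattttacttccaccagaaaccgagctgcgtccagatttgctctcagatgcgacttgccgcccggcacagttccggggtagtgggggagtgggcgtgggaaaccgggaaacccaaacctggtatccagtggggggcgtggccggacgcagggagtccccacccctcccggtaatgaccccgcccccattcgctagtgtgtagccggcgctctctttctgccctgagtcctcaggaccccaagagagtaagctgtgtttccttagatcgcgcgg
Flt1: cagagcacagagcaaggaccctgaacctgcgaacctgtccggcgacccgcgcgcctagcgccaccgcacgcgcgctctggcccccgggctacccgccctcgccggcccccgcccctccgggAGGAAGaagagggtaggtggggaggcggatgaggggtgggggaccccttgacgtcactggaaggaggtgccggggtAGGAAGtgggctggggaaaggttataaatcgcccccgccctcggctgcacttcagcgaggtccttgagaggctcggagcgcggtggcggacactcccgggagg
Slco1c1: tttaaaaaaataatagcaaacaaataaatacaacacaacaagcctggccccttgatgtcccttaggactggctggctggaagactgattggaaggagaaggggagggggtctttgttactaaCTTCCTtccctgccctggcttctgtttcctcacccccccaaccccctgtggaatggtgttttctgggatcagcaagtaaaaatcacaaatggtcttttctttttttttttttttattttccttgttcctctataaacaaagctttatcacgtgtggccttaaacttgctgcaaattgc
Robo4: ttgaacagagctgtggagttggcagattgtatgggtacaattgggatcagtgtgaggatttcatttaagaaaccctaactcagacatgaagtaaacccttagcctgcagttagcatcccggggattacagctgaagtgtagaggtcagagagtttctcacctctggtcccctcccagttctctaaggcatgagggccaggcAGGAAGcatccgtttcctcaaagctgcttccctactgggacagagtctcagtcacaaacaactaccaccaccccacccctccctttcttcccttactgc
The full motif matched 0 times in Kdr, 2 times in Flt1 and 1 time each in Slco1c1 and Robo4. The GGAA core outside the full motif was neither marked nor counted. It also occurs in the Kdr promoter, as TTCC where it lies on the other strand. It matched in 1 of the 3 promoters of Erg and 0 times in that of Notch3. RefSeq gave a promoter for 23 of the 36 genes, 26 promoters in all, and 9 of the 26 (34.6%) held the motif on either strand. Of all 32851 promoters of the same 300 bases, 11613 (35.4%) did.

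Of the endothelial transcription factors, Sox17 was the gene of the 36 whose groups did not overlap, where 2.53% of all features had groups that did not overlap. It encodes a SOX factor of arterial endothelium and had 265, 195, 264 and 219 normalized reads in TG 2, 5, 6 and 8, against 267, 320, 324 and 286 in WT 3, 4, 5 and 7. The gap between the groups was small, since TG 2 and TG 6 lay just below WT 3. Its log2 fold change was -0.35 ± 0.23 (SE; limma adjusted p = 0.918). Sox18, a related factor, averaged 440 ± 77.2 normalized reads in TG and 426 ± 93.8 in WT (SD, n = 4 each). Erg, the ETS factor that keeps the endothelial programme, had 73.6, 66.9, 18.5 and 26.3 in TG, against 43.0, 29.5, 16.9 and 192 in WT. WT 7 was far above every other library for Erg.

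Of the surface and adhesion genes, 6 of 8 had log2 fold changes below 0, with a median of -0.18. Pecam1, a junctional adhesion molecule and common endothelial marker, had 676, 479, 284 and 607 normalized reads in TG 2, 5, 6 and 8, against 334, 434, 509 and 1233 in WT 3, 4, 5 and 7. Cdh5, the cadherin of endothelial adherens junctions, had 251, 141, 100 and 151 in TG, against 135, 164, 123 and 519.6 in WT. Both genes overlapped between groups and were highest in WT 7 and lowest in TG 6. Vwf, the carrier of clotting factor VIII, had 793, 830, 863 and 822 normalized reads in TG, against 335, 648, 1035 and 853 in WT. The TG libraries lay within a narrow band that the WT libraries enclosed, and the log2 fold change was 0.32 ± 0.28 (SE). Robo4, a receptor that steadies the vessel wall, had 179, 124, 43.2 and 157 in TG, against 107, 141, 61.3 and 342 in WT. For the other surface genes the log2 fold changes were -0.26 ± 0.26 for Esam, 0.05 ± 0.31 for Emcn, -0.13 ± 0.25 for Icam2 and -0.19 ± 0.29 for Eng (SE). Esam and Icam2 are adhesion molecules, Emcn is a mucin and Eng is a coreceptor for transforming growth factor beta. Another tested feature overlaps Eng.

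The endothelial ligands had log2 fold changes on both sides of 0. Angpt2, the angiopoietin that endothelial cells release when vessels remodel, had 174, 127, 70.4 and 156 normalized reads in TG 2, 5, 6 and 8, against 63.5, 58.9, 79.3 and 173 in WT 3, 4, 5 and 7. TG 2, TG 5 and TG 8 lay above 3 of the WT libraries and TG 2 was about level with WT 7, and the log2 fold change was 0.55 ± 0.43 (SE; limma adjusted p = 0.918). Angpt2 overlaps Mcph1. Pdgfb averaged 359 ± 109 normalized reads in TG and 369 ± 101 in WT (SD, n = 4 each; log2 fold change -0.06 ± 0.27, SE).

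Log2 fold changes of the 6 pericyte genes were all below 0, with a median of -0.32. Rgs5, a regulator of G protein signalling and pericyte marker, had 17395, 16629, 13672 and 14277 normalized reads in TG 2, 5, 6 and 8, against 21064, 14617, 13946 and 19826 in WT 3, 4, 5 and 7. It varied least of the 36 genes, 1.54-fold between the highest and the lowest library, and the log2 fold change was -0.15 ± 0.16 (SE). Pdgfrb, the receptor through which Pdgfb keeps pericytes on the vessel, had 209, 152, 51.9 and 109 in TG, against 100.3, 134, 137 and 282 in WT. WT 7 was the highest and TG 6 the lowest library for Pdgfrb. Notch3, the Notch receptor of mural cells, had 198, 34.3, 24.7 and 66.3 in TG, against 47.1, 84.7, 61.3 and 247 in WT, and overlaps a predicted gene. Cspg4, the NG2 proteoglycan, averaged 195 ± 104 normalized reads in TG and 247 ± 174 in WT (SD, n = 4 each). Kcnj8 and Abcc9 encode the pore and the sulfonylurea receptor of 1 potassium channel and lie 16.5 kb apart on chromosome 6. Kcnj8 had 326, 236, 225 and 319 normalized reads in TG, against 479, 129, 305 and 409 in WT. Abcc9 had 59.4, 17.6, 0 and 54.6 in TG, against 29.7, 15.7, 10.6 and 74.1 in WT. The fitted log2 fold change of Abcc9 was -0.71 ± 1.18 (SE), although its means were near equal at 32.9 in TG and 32.5 in WT.

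The contractile and filament genes had a median log2 fold change of -0.06, with 3 of 4 below 0. Acta2, smooth muscle actin, had 1614, 1017, 879 and 491 normalized reads in TG 2, 5, 6 and 8, against 953, 370, 747 and 922 in WT 3, 4, 5 and 7. TG 2 was the highest library and WT 4 the lowest, and the log2 fold change was 0.39 ± 0.35 (SE). Myh11, smooth muscle myosin, had 579.7, 169, 221 and 230 in TG, against 339, 182, 276 and 406 in WT, so TG 2 stood apart from the other TG libraries. Des, the filament protein desmin, averaged 65.9 ± 36.6 in TG and 73.7 ± 26.1 in WT. Tagln, an actin-binding protein also called SM22, averaged 920.5 ± 312 in TG and 889 ± 178 in WT (SD, n = 4 each), and overlaps Pcsk7.

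Per kilobase of principal transcript, mural genes held both ends of the order of levels. Rgs5 was first at 4011 normalized reads per kb averaged over the 8 libraries, then Cldn5 at 1769, Tagln at 567, Acta2 at 429.6 and Slco1c1 at 274. Notch3 at 11.9 and Abcc9 at 4.36 normalized reads per kb were the lowest. Rgs5 stood apart from the other pericyte genes, of which Kcnj8 was highest at 119 per kb. Which cells supplied the reads of Rgs5 was not tested. Tagln and Acta2 overlapped between libraries, so their order does not exceed their spread, whereas Rgs5 exceeded Cldn5 in every library.

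Endothelial and mural genes were compared within each library, as the mean log2 level of each set after every gene was centred on its own mean over the 8 libraries. The endothelial level was 0.38, 0.0012, -0.70 and -0.15 in TG 2, 5, 6 and 8, against -0.15, -0.096, -0.11 and 0.84 in WT 3, 4, 5 and 7. The mural level was 0.75, -0.018, -1.01 and -0.16 in TG, against 0.36, -0.49, -0.092 and 0.67 in WT. Both sets were high in TG 2 and WT 7 and low in TG 6. Group means of the endothelial level were -0.12 ± 0.45 in TG and 0.12 ± 0.48 in WT, and those of the mural level -0.11 ± 0.72 in TG and 0.11 ± 0.51 in WT (SD, n = 4 each). The endothelial minus mural level was -0.37, 0.019, 0.31 and 0.011 in TG, against -0.51, 0.39, -0.020 and 0.17 in WT. Its group means were -0.0085 ± 0.28 in TG and 0.0085 ± 0.38 in WT, a difference of -0.017 that is smaller than either SD. That difference was -0.30 without both WT 3 and TG 6, -0.19 with edgeR and -0.18 with DESeq2, and ran from -0.19 to 0.11 leaving out each library. Without Abcc9, which is at 0 in TG 6, the mural level of TG 6 was -0.65, and the TG minus WT difference of endothelial minus mural was -0.071.

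**Figure D3:**
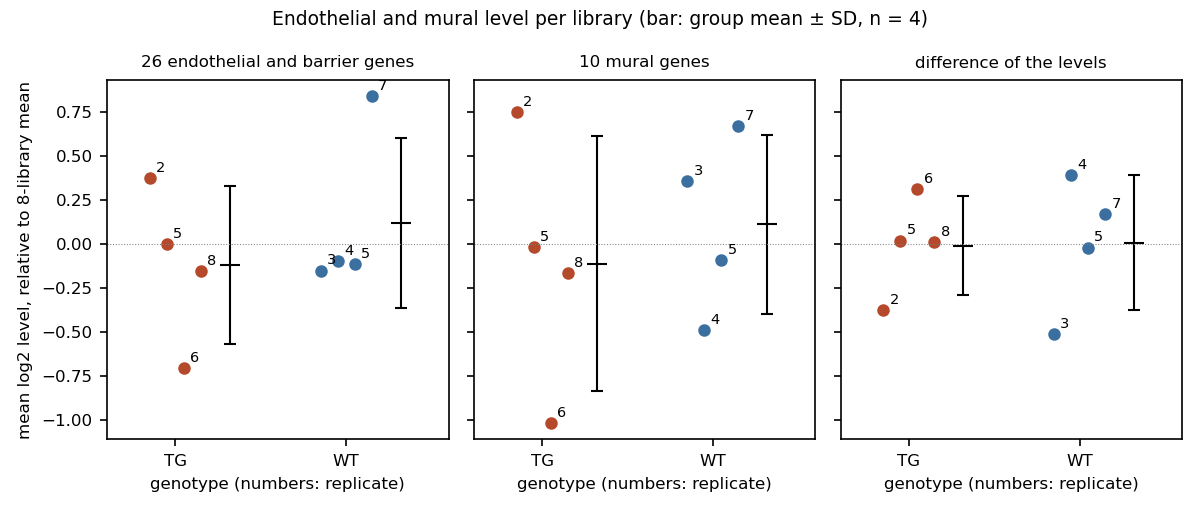
Endothelial level, mural level and their difference in each library (log2, each gene centred on its mean over the 8 libraries; points, TG on the left), with group means and SDs. WT 7 and TG 2 are high and TG 6 is low in both levels, and the differences of the TG libraries lie within the range of the WT libraries.

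The library ranks showed the same pattern gene by gene. WT 7 was the highest of the 8 libraries for 15 of 26 endothelial genes (57.7%) and 3 of 10 mural genes, where it was highest for 16.5% of all features. TG 6 was the lowest for 18 of 26 endothelial genes (69.2%) and 6 of 10 mural genes, against 18.5% of all features. TG 2 lay above the 8-library mean for 25 of 26 endothelial and 10 of 10 mural genes, against 10532 of all 19798 features. In a list of 34 other endothelial genes that passed the filter, WT 7 was highest for 22 (64.7%). Median levels over that list were 0.22 in TG 2, -0.26 in TG 6 and 0.79 in WT 7, with WT 4 lowest at -0.27. In that list TG 6 was lowest for 7 (20.6%), fewer than TG 8 and WT 4 with 8 each, and TG 2 lay above the mean for 21. The median within-group SD on the log2 scale was 0.58 for the 29 genes of the 36 with a mean of 100 to 1000, against 0.39 for all 7275 such features. Summed markers of astrocytes and Müller glia were 69828, 34614, 24882 and 76598 normalized reads in TG 2, 5, 6 and 8, against 36765, 36180 and 18314 in WT 3, 4 and 5 and 71702 in WT 7. They were thus high in TG 2 and WT 7 and low in TG 6 as well, but also high in TG 8, and were lowest in WT 5. Within the sum, Glul was highest in WT 7 (49906.5) and lowest in WT 5 (9355). Gfap was instead highest in WT 3 (3860) and lowest in TG 8 (649). The part of these markers in the pattern was not tested.

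**Figure D4:**
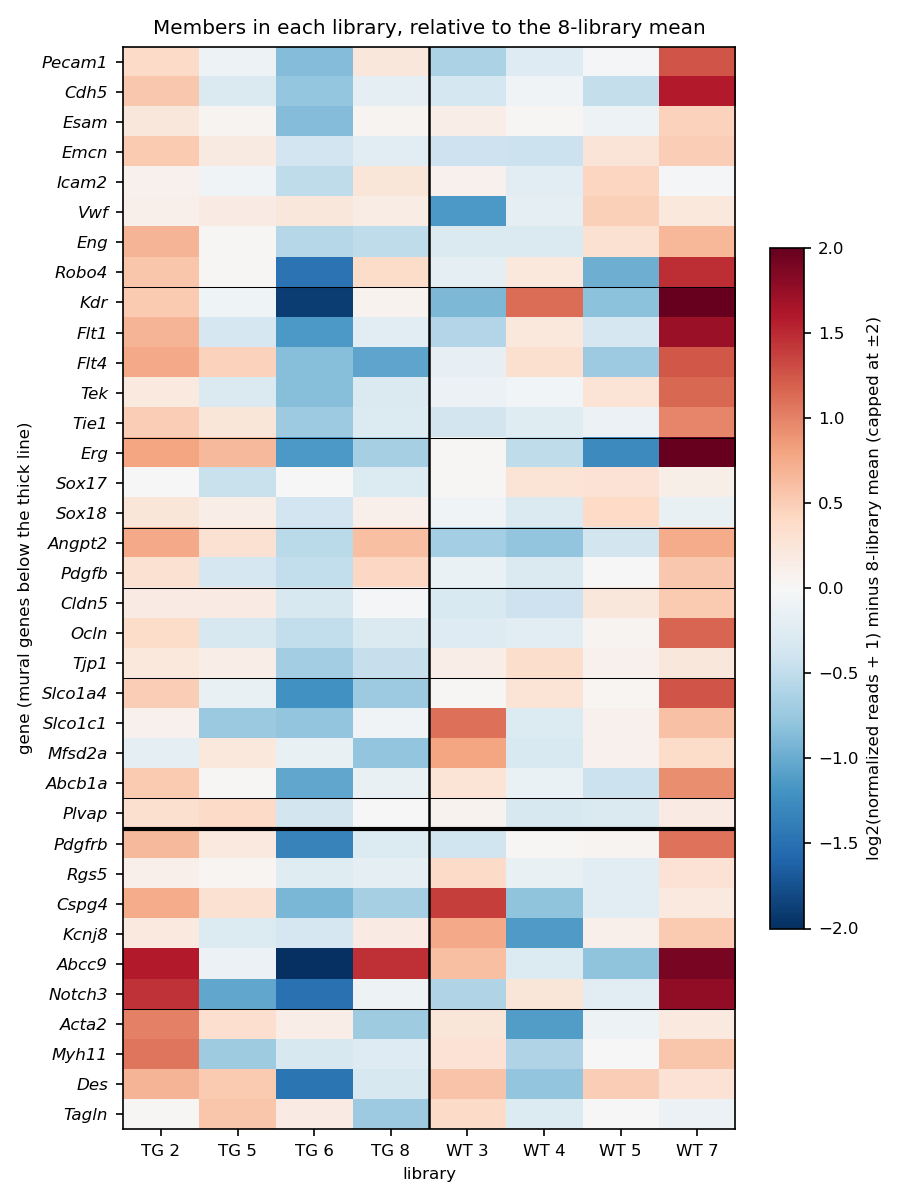
Log2 level of each of the 36 genes in each library minus the gene's mean over the 8 libraries (colour, capped at 2 in both directions; TG columns on the left, mural genes below the thick line). The columns of WT 7 and TG 2 are mostly above the mean and that of TG 6 mostly below it.

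In TG 2, TG 6 and WT 7 the pattern was stronger for longer transcripts. Of the 36 genes, 25 have a principal transcript of 3000 bases or more. Over the 18 endothelial genes of that length, the mean level was 0.45 in TG 2, -0.83 in TG 6 and 1.08 in WT 7, and over the 8 shorter ones it was 0.21, -0.43 and 0.30 in those libraries. Features of all kinds leaned the same way but less: those of 5000 to 7000 bases had medians of 0.19 in TG 2, -0.26 in TG 6 and 0.30 in WT 7, and those under 1000 bases -0.21, 0.27 and -0.16. Pearson's r of level with log2 transcript length over the 36 genes was 0.51 in TG 2, -0.44 in TG 6 and 0.52 in WT 7, against 0.19, -0.22 and 0.23 over 14712 features. In the other libraries r over the 36 genes was -0.29 in TG 5, 0.052 in TG 8, -0.18 in WT 3, 0.35 in WT 4 and -0.35 in WT 5. WT 4 had the largest r over all features, 0.26, and a median of 0.26 for features of 5000 to 7000 bases, while its endothelial level was -0.096. In WT 4 the mean level was -0.015 over the 18 longer endothelial genes and -0.28 over the 8 shorter ones. These describe genes that share a library and are not replicates. The part of transcript length in the group differences was not tested.

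**Figure D5:**
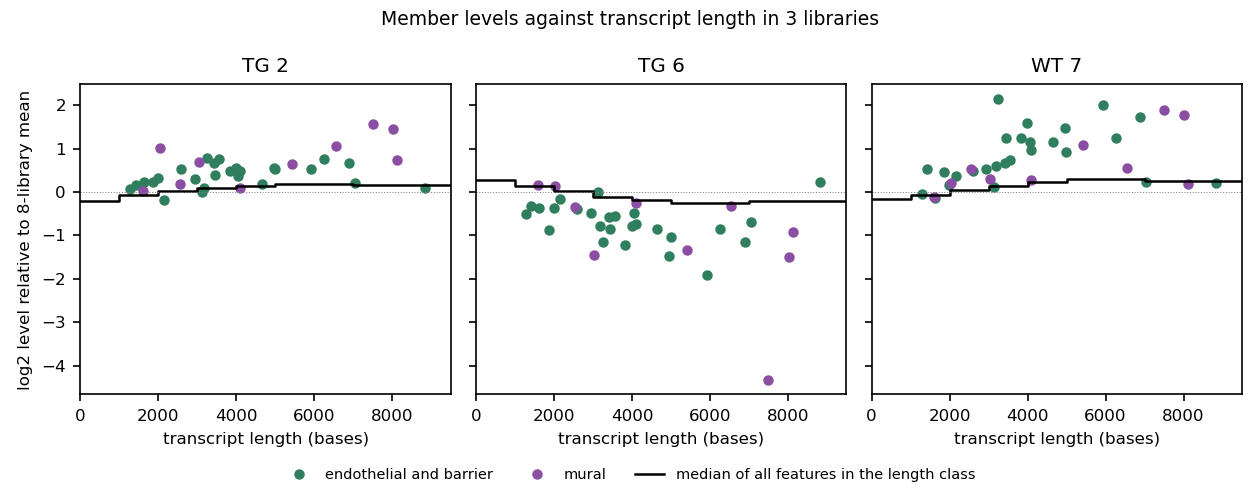
Level of each of the 36 genes minus its mean over the 8 libraries (y axis, log2) against principal transcript length (x axis, bases) in TG 2, TG 6 and WT 7, with the medians of all features by length class as a line. Long genes lie mostly above 0 in TG 2 and WT 7 and mostly below 0 in TG 6, beyond the class medians.

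Sex was unevenly spread, since WT 7 was the single WT female. Among males, the endothelial level averaged 0.19 in the 2 TG libraries and -0.12 in the 3 WT libraries. Among females it averaged -0.43 in the 2 TG libraries, against 0.84 in WT 7. With males alone, 6 of 26 endothelial and 0 of 10 mural genes had log2 fold changes below 0, and the medians were 0.39 and 0.41. A genotype by sex interaction, added after the data were seen, had an adjusted p under 0.05 for 0 of the 36 genes (limma; lowest adjusted p 0.33), against 0.00505% of all features. At an unadjusted p under 0.05 it gave 20 of the 36, where 11.8% of all features met that mark. WT 7 is the whole female WT arm and is assumed to vary like the other libraries, so these counts restate how far WT 7 lay from the rest and are no separate evidence of a difference between the sexes. Sex, eye and whatever else is particular to WT 7 cannot be told apart within WT.

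Lists of other vessel genes held no feature past the test (limma), and each gene named from them had an adjusted p of 0.918. Of 34 other endothelial genes, 13 had log2 fold changes above 0 and 21 below, with a median of -0.15, and of 20 other mural genes 10 lay above and 10 below, with a median of -0.0048. Among 23 VEGF, angiopoietin and Notch ligands and partners, 17 lay above 0 and 6 below, with a median of 0.13, where 47.8% of all features lay above 0. Apln, a peptide of sprouting tip cells, had 277, 146, 34.6 and 248 normalized reads in TG 2, 5, 6 and 8, against 92.1, 12.9, 0 and 95.5 in WT 3, 4, 5 and 7. TG 6 lay among the WT values, and the fitted log2 fold change of 2.88 ± 1.21 (SE) leans on the 0 of WT 5, since edgeR gave 1.83 and DESeq2 1.81. Hes1, a Notch target, averaged 1466 ± 601 in TG and 1019 ± 227 in WT, and Acvrl1, an endothelial receptor for bone morphogenetic proteins, had a log2 fold change of -0.56. In the Norrin and Wnt pathway, which builds the retinal barrier, 6 of 13 lay above 0 and 7 below, and in 24 other junction and transport genes 13 lay above and 11 below. Of 8 endothelial activation genes, 4 lay above and 4 below. Ptgs2, the inducible cyclooxygenase, had 39.0, 66.9, 27.2 and 42.9 normalized reads in TG, against 123, 226, 82.4 and 70.2 in WT, and its groups did not overlap (log2 fold change -1.41 ± 0.47, SE). Icam1, the leukocyte adhesion molecule, had 104, 136, 139.6 and 146 in TG, against 91.1, 102, 67.6 and 90.7 in WT, again without overlap (log2 fold change 0.58 ± 0.31, SE). These are the 2 of the 8 without overlap, where 2.53% of all features had none. Ackr1, from the same list, overlapped between groups, at 3226 to 4090 in TG and 2197 to 3418 in WT (log2 fold change 0.40 ± 0.16, SE). Of 11 vessel basement membrane genes, 7 lay above 0 and 4 below.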

How the data were processed

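The deposited table gives a signal for 56465 features on mm10 (GRCm38). These are reads normalized with DESeq2 by the authors, using a size factor for each library, per the file headers. The submitters' processing notes list STAR 2.4.0, SAMtools, Picard, FastQC and DESeq2. Libraries were polyA-selected and stranded, per the labels' protocols. How reads were counted, with which strand setting and gene annotation, the sources used here do not say, so overlapping, antisense or near-identical genes may share reads. Every column held whole multiples of its smallest positive value (100% of values within 0.01 of a whole number), which recovered the reads. Unmapped sample columns numbered 0.

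Each feature with a mean of 10 or more was tested with limma 3.58.1 in R 4.3.3. The scale was log2(normalized value + 1), and the variance prior followed a trend. P-values are two-sided and were adjusted by the Benjamini-Hochberg method over all 19798 features, with a threshold of 0.05. On this scale the added 1 shrinks changes between low values, while a single library at or near 0 can enlarge the fitted change of a low gene. Alternatives were edgeR 4.0.16 (quasi-likelihood) and DESeq2 1.42.0 on the recovered reads, and the scalings, pseudocounts, filters, terms and omitted libraries of the closing section. The procedure was tested on simulated data. Transcript lengths are of GENCODE M21 principal transcripts.

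The genes and lists were chosen with earlier results of these data known. All 36 genes are named whatever their test. Of each list of other vessel genes, up to 3 with the smallest p could be named, and a part of these is. Figf, Bmp9, Cavin1 and Cavin2 matched no symbol. Levels and medians over genes carry no test, since genes are not replicates. With 4 libraries per group, the spread between libraries limits the precision.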

Additional observations from a re-analysis of the deposited data

Results flagged for a closer look

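Within a group of 4 libraries, 9 of 118 groups held a library set apart from the other 3 by more of the group's range than Dixon's 95% critical value allows, a mark that chance alone passes in about 1 of 20 groups. Among WT libraries the one set apart was WT 7 for each of these: Cdh5 at 519.6 normalized reads, Tie1 at 556, Erg at 192, Ocln at 323, Slco1a4 at 966 and Marveld2, a junction gene, at 80.9. The endothelial level over the 26 genes was also set apart in WT 7, at 0.84. Among TG libraries, Myh11 was set apart in TG 2 at 579.7 normalized reads and Hes1 in TG 8 at 2363.

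The TG minus WT difference of the endothelial level was 0.31 in males and -1.27 in females, so the difference between the sexes was 1.58. That difference of a level over the genes was itself not tested, and the female WT value is the single library WT 7. For the mural level the TG minus WT difference was 0.44 in males and -1.26 in females.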

How the results depend on the processing

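No gene of the 36 passed the threshold under any of the 21 settings tried, with a lowest adjusted p of 0.61. Depth limits Abcc9 most, whose direction cannot be read at its low counts. The count of features called higher in TG was 0 with a pseudocount of 0.5, no filter, a minimum mean of 50 or sex as a term, 9 with DESeq2, and 0 to 2 leaving out each library, and was 1 otherwise. The count called lower was 3 with males only, 7 with DESeq2 and 1 to 2 leaving out each library. edgeR called 1 feature higher and 1 lower. The endothelial median log2 fold change was 0.39 and the mural 0.41 with males only. The mural median was 0.012 with array weights and 0.14 without both WT 3 and TG 6, and the difference of levels ran from -0.30 (without both WT 3 and TG 6) to 0.0071 (pseudocount of 0.5), with -0.19 in edgeR and -0.18 in DESeq2. WT 3 and TG 6 were left out together because earlier results of these data set them apart. Leaving out each library, the endothelial median ran from -0.46 to 0.0040 (without WT 7), the mural median from -0.52 to -0.014 and the difference of levels from -0.19 to 0.11. Log2 fold changes whose sign turned are these, and the cause was not tested. With males only, Pecam1 0.44, Cdh5 0.43, Esam 0.13, Eng 0.44, Robo4 0.61, Kdr 0.42, Flt1 0.41, Flt4 0.79, Tie1 0.61, Erg 1.30, Pdgfb 0.13, Cldn5 0.32, Ocln 0.17, Slco1a4 0.057, Abcb1a 0.37, Pdgfrb 0.54, Rgs5 0.065, Cspg4 0.41, Kcnj8 0.059, Abcc9 0.89, Notch3 0.40, Myh11 0.28, Des 0.51, Tagln 0.25, Podxl 0.32. With eye as a term, Emcn -0.041. Without both WT 3 and TG 6, Icam2 0.028, Vwf -0.026, Robo4 0.077, Erg 0.13, Pdgfb 0.043, Abcb1a 0.014, Rgs5 0.010, Cspg4 0.42, Kcnj8 0.20, Abcc9 0.70, Myh11 0.049, Des 0.29, Tagln 0.070. With array weights, Eng 0.0031, Tie1 0.072, Erg 0.15, Cldn5 0.14, Cspg4 0.055, Kcnj8 0.082, Des 0.14, Tagln 0.14. With upper-quartile scaling, Cldn5 0.026, Tagln 0.048. With edgeR on recovered reads, Abcc9 0.031, Myh11 0.013, Tagln 0.055. With DESeq2, Abcc9 0.021, Tagln 0.050. With a pseudocount of 5, Tagln 9.38e-05. With sex as a term, Tagln 0.097. Leaving out each library, the ranges of genes whose sign turned were Pecam1 -0.41 to 0.21, Cdh5 -0.59 to 0.12, Emcn -0.12 to 0.22, Icam2 -0.23 to 0.021, Vwf -0.0055 to 0.54, Robo4 -0.64 to 0.18, Flt4 -0.65 to 0.011, Tie1 -0.31 to 0.17, Erg -0.65 to 0.49, Sox18 -0.033 to 0.19, Pdgfb -0.20 to 0.12, Cldn5 -0.16 to 0.15, Pdgfrb -0.66 to 0.0037, Cspg4 -0.57 to 0.16, Kcnj8 -0.52 to 0.11, Abcc9 -1.35 to 0.62, Myh11 -0.49 to 0.10, Des -0.59 to 0.15, Tagln -0.18 to 0.24. Abcc9 was not tested with a minimum mean of 50. The mural level without Abcc9 and the genotype by sex interaction were added after the data were seen. No paired analysis was made, because the labels do not pair any TG retina with a WT retina.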

Other observations

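Among markers of lymphatic endothelium, Ccl21a, a chemokine of lymphatic vessels, was listed at 0 in TG 2, 5, 6 and 8 and in WT 4, and had 47.1, 108 and 79.9 normalized reads in WT 3, 5 and 7. Ccl21a has near-identical copies in the mouse genome, so its reads are uncertain. The lymphatic markers Prox1 and Lyve1 were present in all 8 libraries, and Prox1 is also made by retinal neurons and glia.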
